A study of Mus musculus with 8 samples.

Results

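The unfolded protein response was examined through 10 genes in RNA-seq of cultured mouse articular chondrocytes given IL-1β or vehicle. They were *Ern1* and *Atf6* (sensors), *Xbp1*, *Atf4*, *Ddit3* and *Creb3l2* (transcription factors), and *Hspa5*, *Sdf2l1*, *Dnajb9* and *Herpud1* (effectors of folding and degradation). Members were the rows of the count table whose gene symbol matched the list, and each of the 10 symbols matched 1 of 54658 rows. These were primary cells of wild-type mice aged 3 weeks, released from the femoral heads with collagenase and cultured. The 4 IL-1β samples received the proinflammatory cytokine at 1 ng/mL for 24 h, and the 4 vehicle samples received the carrier alone. Only this dose and this time were measured. The labels do not say whether samples of a group came from separate isolations or animals, so p-values measure the spread between these samples, which may be technical.

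The endoplasmic reticulum (ER) is where a cell folds the proteins that it secretes, and chondrocytes fold large amounts of collagen and proteoglycan core protein. When unfolded protein builds up there, it draws the chaperone BiP, encoded by *Hspa5*, away from a set of sensors in the ER membrane. IRE1α, encoded by *Ern1*, then splices the mRNA of *Xbp1*. PERK, encoded by *Eif2ak3*, phosphorylates eIF2α, which slows translation in general and favours that of *Atf4*. ATF6 moves to the Golgi, where proteases release its active part. The resulting transcription factors raise chaperones, degradation factors and, under lasting stress, the proapoptotic factor CHOP, encoded by *Ddit3*. Counts per gene measure the amount of each mRNA. They show neither the splicing of *Xbp1*, nor the phosphorylation of eIF2α, nor the translation of *Atf4*, nor the cleavage of ATF6.

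IL-1β lowered the mRNA of 6 of the 10 genes and raised that of 1, and none reached a 2-fold change. The genes that fell were *Hspa5*, *Ddit3*, *Creb3l2*, *Herpud1*, *Ern1* and *Atf6*, by 9.81% to 26.4% relative to vehicle. *Dnajb9* rose by 16.5%. *Atf4*, *Xbp1* and *Sdf2l1* did not pass the test, which was edgeR's quasi-likelihood test at a Benjamini-Hochberg adjusted p under 0.05 over the 14404 genes tested. Among all genes tested, 20.4% rose and 19.8% fell at this threshold. Of the 6750 genes with a mean of at least 20 CPM (counts divided by the scaled library size), the range in which the members lay, 25.8% rose and 27.8% fell. The median log2 fold change was -0.18 over the 10 members and -0.00 over all genes tested, whose middle 50% ran from -0.16 to 0.16. For the larger changes, a differentially expressed gene (DEG) also needed a log2 fold change beyond 1 in either direction, and 2.86% of all genes tested were upregulated and 2.35% downregulated DEGs, with 0 of the 10 members among them.

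**Figure D1:**
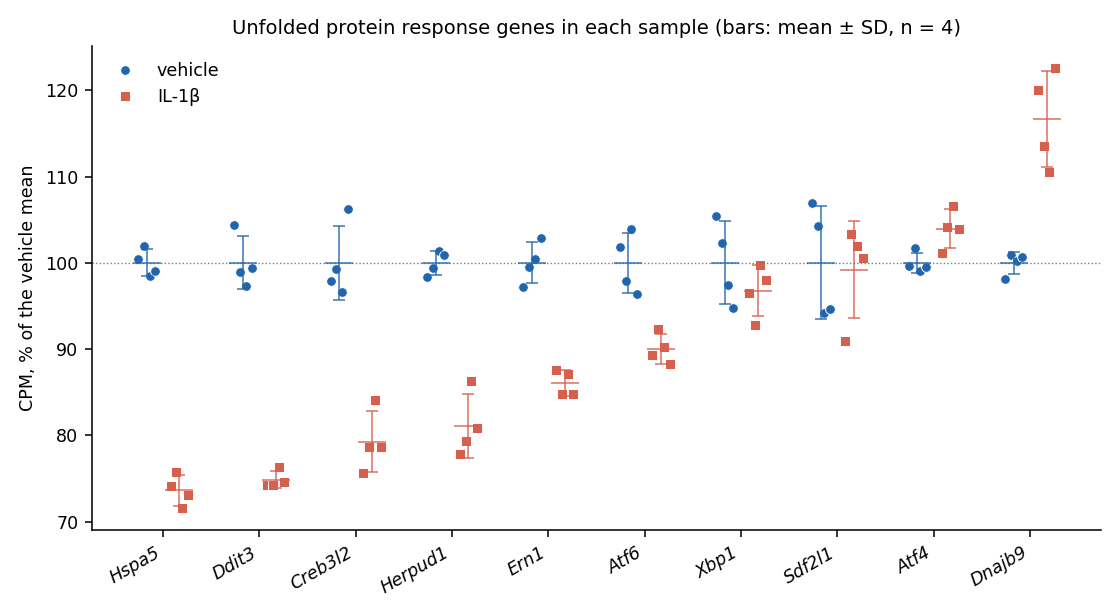
CPM of the 10 genes in each of the 8 samples, as a percent of the gene's vehicle mean on the vertical axis (circles, vehicle; squares, IL-1β; bars, mean ± SD, n = 4 per group). The IL-1β samples lie below every vehicle sample for *Hspa5*, *Ddit3*, *Creb3l2*, *Herpud1*, *Ern1* and *Atf6*, above them for *Dnajb9*, and overlap them for *Xbp1*, *Sdf2l1* and *Atf4*, for the last with 3 of 4 above every vehicle sample.

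The libraries held 10992355 to 17104351 counts in the IL-1β group and 13970959 to 17456063 in the vehicle group, and the members had between 220 and 24116 counts per sample. The chondrocyte markers were present, and all 10 were lower after IL-1β, with a summed level of 3615 to 3986 CPM against 14363 to 14927 CPM in vehicle. Of 8 macrophage markers, 2 passed the expression filter, *Cd14* rose and *Lyz2* fell, and the list summed to 15.8 to 17.4 CPM after IL-1β and 6.53 to 8.01 CPM in vehicle, with *C1qb* at 0 in all 8 samples. The 5 fibroblast markers summed to 57.1 to 61 CPM after IL-1β and 37.8 to 40.5 CPM in vehicle. That sum rested on *Pdgfra* and *Cd34*, which rose from 27.7 to 41.4 and from 10.4 to 17.6 CPM. *Thy1*, *Pi16* and *Dpt* did not pass the expression filter. The 6 osteoblast and osteoclast markers summed to 162 to 164 CPM after IL-1β and 195 to 205 CPM in vehicle. Among these, *Bglap*, *Ibsp* and *Sp7* fell as DEGs, with log2 fold changes of -1.62, -3.69 and -1.42. *Ctsk*, which makes up most of their sum, rose by 0.30. Skeletal muscle markers summed to 0.362 to 0.775 CPM after IL-1β and 1.85 to 2.84 CPM in vehicle, and endothelial, B and plasma cell and erythroid markers each to at most 1.81 CPM in any sample. These shifts moved with every difference given for the 10 genes, and their part in those differences was not tested. In bulk RNA, fewer cells of a type and less RNA per cell cannot be told apart.

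Both sensors among the members fell. *Ern1* (chr11:106394650-106487852, minus strand, mm10), the gene of the kinase and endonuclease IRE1α, had 184, 178, 183 and 178 CPM in IL-1β replicates 1 to 4 and 204, 209, 211 and 216 CPM in vehicle replicates 1 to 4. Every IL-1β sample lay below every vehicle sample. Its log2 fold change was -0.22 (SE 0.0306, edgeR adjusted p = 1.09e-06), from 210.1 ± 5.16 to 181 ± 3.32 CPM (SD, n = 4). *Atf6* (chr1:170704674-170867771, minus strand), which encodes the membrane-held precursor of a transcription factor, had 177, 183, 179 and 175 CPM after IL-1β and 202, 194, 206 and 191 CPM in vehicle. The groups did not overlap, and the log2 fold change of -0.15 was the smallest among the genes that fell (SE 0.0316, edgeR adjusted p = 0.000335). Over all genes tested, 18.2% had every IL-1β sample below every vehicle sample and 18.7% had every one above. Of the members, 6 and 1 did.

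Of the other genes of sensors and activating proteases, which are no members, 4 were tested and 2 of these fell, with a median log2 fold change of -0.11. *Eif2ak3*, the gene of PERK, had 19.7 ± 1.23 CPM after IL-1β and 23.4 ± 1.63 CPM in vehicle (SD, n = 4), a log2 fold change of -0.26 (SE 0.0671, edgeR adjusted p = 0.00228). *Mbtps1*, which encodes the first of the Golgi proteases that cut ATF6, gave -0.17 on the log2 scale (edgeR adjusted p = 4.64e-05). *Atf6b*, the relative of *Atf6*, did not pass, with a log2 fold change of -0.01 and a 95% interval of -0.09 to 0.07. *Mbtps2*, the gene of the partner protease, named here to complete the list, did not pass either, with -0.05 and an interval of -0.13 to 0.04. Its exons overlap *Yy2*, on the same strand, over 28.4% of their length, so some of its reads may be counted elsewhere or set aside. With *Ern1* and *Atf6* counted in, 4 of the 6 genes tested fell and 0 rose, with a median of -0.16. That is 66.7% and 0% of a short list, against 19.8% and 20.4% of all genes tested. The seventh of the list, *Ern2*, is not given a value because it did not pass the expression filter.

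*Xbp1* (chr11:5520659-5525893, plus strand) encodes the transcription factor whose mRNA IRE1α splices. It had 49.4, 47.5, 51.1 and 50.2 CPM after IL-1β and 54, 52.4, 49.9 and 48.5 CPM in vehicle. The groups overlapped. With a log2 fold change of -0.05 and a 95% interval of -0.14 to 0.04 (edgeR adjusted p = 0.427), neither a small fall nor a smaller rise can be told from no change here. Spliced and unspliced *Xbp1* mRNA are summed in these values.

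*Atf4* and *Ddit3* act in sequence in the PERK arm, since ATF4 is an activator of the CHOP gene. *Atf4* (chr15:80255184-80257541, plus strand) had 885, 912, 933 and 909.8 CPM after IL-1β and 872, 890.5, 867 and 871 CPM in vehicle. The groups overlapped only through IL-1β replicate 1, which lay under vehicle replicate 2. The log2 fold change was 0.06, with a 95% interval of -0.00 to 0.11 and an adjusted p of 0.117 by edgeR. *Ddit3* (chr10:127290774-127296288, plus strand) had 177, 177, 182 and 178 CPM after IL-1β against 249, 236, 232 and 237 CPM in vehicle. The 4 IL-1β values spanned a narrower range than the 4 vehicle values and lay below all of them. Its log2 fold change was -0.42 (SE 0.0311, edgeR adjusted p = 4.4e-12), from 239 ± 7.06 to 179 ± 2.14 CPM (SD, n = 4). Other gene models overlap 10.9% of the exon length of *Ddit3*, namely *Mars* and *Gm4189* on the opposite strand and a second model of the same symbol on the same strand, so some of its reads may be counted elsewhere or set aside.

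*Creb3l2* (chr6:37327255-37442146, minus strand) encodes BBF2H7, a membrane-bound transcription factor of the OASIS family that is processed like ATF6 and that chondrocytes need to secrete cartilage matrix. Its levels were 109.7, 114, 122 and 114 CPM after IL-1β and 142, 144, 140.1 and 154 CPM in vehicle. No IL-1β sample reached the lowest vehicle sample. This gave a log2 fold change of -0.33 (SE 0.0359, edgeR adjusted p = 9.43e-09). *Creb3l1*, which encodes OASIS itself, fell further, from 165 ± 3.01 to 114 ± 7.36 CPM (SD, n = 4), a log2 fold change of -0.53 (adjusted p = 6.24e-13). Of the 4 genes of the CREB3 family that were tested, 3 fell and 0 rose, with a median of -0.28. That is 75% and 0% of a short list, against 19.8% and 20.4% of all genes tested. *Sec23a*, a COPII coat gene known as a target of BBF2H7 in cartilage, changed by -0.24 on the log2 scale (141 ± 4 against 119 ± 3.68 CPM, adjusted p = 6.16e-07).

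*Hspa5* (chr2:34771970-34777547, plus strand) encodes BiP, the ER chaperone that both folds proteins and restrains the sensors. It had 1016, 1039, 981 and 1001 CPM after IL-1β and 1377, 1398, 1350.2 and 1357 CPM in vehicle. The gap between the groups was far wider than the spread within either. The log2 fold change of -0.44 was the largest of the 10 in size (SE 0.0279, 95% interval -0.50 to -0.38, edgeR adjusted p = 1.11e-13), from 1370.4 ± 21.6 to 1009 ± 24.5 CPM (SD, n = 4). The promoter of *Hspa5* is the textbook home of the ER stress response element (ERSE), which is read by NF-Y at its first block and by ATF6 or XBP1 at its second. The RefSeq window from 250 bases before to 50 bases after the RefSeq start of the gene, which lies 120 bases inside the GENCODE gene given above (GRCm38.p6, the assembly of mm10, chr2:34771840-34772139, plus strand) is shown because it holds this element, with the blocks CCAAT and CCACG in capitals and 9 free bases between them.
Hspa5: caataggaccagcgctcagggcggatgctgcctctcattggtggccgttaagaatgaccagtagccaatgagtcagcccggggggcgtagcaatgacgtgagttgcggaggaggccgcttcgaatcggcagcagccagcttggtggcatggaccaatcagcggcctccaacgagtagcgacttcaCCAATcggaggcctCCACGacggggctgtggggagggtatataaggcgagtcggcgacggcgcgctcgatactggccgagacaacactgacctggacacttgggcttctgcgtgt

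*Herpud1* (chr8:94386438-94395377, plus strand) encodes HERP, an ER membrane protein of the degradation complex. It had 155, 158, 172 and 161 CPM after IL-1β and 196, 198, 202 and 201 CPM in vehicle. IL-1β replicate 3 was the highest of its group and still lay below the lowest vehicle sample. Its log2 fold change was -0.30 (SE 0.033, edgeR adjusted p = 1.31e-08). Its RefSeq window (chr8:94386179-94386478, plus strand) is shown because it was the only member window with matches to both a stress element of the ATF6 and XBP1 arms and that of the ATF4 arm. The capitals mark, in order, the C/EBP-ATF element TTGCATCA, 112 to 105 bases before the RefSeq start, and the blocks ATTGG and CCACG of ERSE-II, 1 base apart, 52 to 42 bases before it.
Herpud1: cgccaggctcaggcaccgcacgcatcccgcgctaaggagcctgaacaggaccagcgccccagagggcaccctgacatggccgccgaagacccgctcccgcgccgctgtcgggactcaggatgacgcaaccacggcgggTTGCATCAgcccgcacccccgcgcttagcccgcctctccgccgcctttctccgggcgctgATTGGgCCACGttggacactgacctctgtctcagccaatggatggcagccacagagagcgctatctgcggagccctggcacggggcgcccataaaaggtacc

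*Sdf2l1* and *Dnajb9* encode partners of BiP, and neither fell. *Sdf2l1* (chr16:17130138-17132383, minus strand), which keeps misfolded clients soluble, had the fewest counts of the 10, with 19.9, 22.6, 22.3 and 22 CPM after IL-1β and 23.4, 22.8, 20.6 and 20.7 CPM in vehicle. The groups overlapped almost fully. A log2 fold change of -0.01 resulted, and its 95% interval of -0.14 to 0.12 did not reach the value of *Hspa5* (edgeR adjusted p = 0.918). *Dnajb9* (chr12:44205559-44210326, minus strand) encodes ERdj4, a J-domain partner that brings BiP back to IRE1α. It had 47.7, 45.1, 43.9 and 48.7 CPM after IL-1β and 39, 40.1, 39.8 and 40 CPM in vehicle. All 4 IL-1β samples exceeded all 4 vehicle samples, and the log2 fold change was 0.22 (SE 0.0454, edgeR adjusted p = 0.000227). The microRNA gene *Mir5627*, on the other strand, overlaps 0.549% of its exons.

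Levels were compared between the 10 genes as TPM, in which counts are divided by the gene length of the deposited table and scaled to one total per sample. In vehicle, *Atf4* was highest at 1035 ± 32.3 TPM and *Hspa5* followed at 904 ± 33 TPM (SD, n = 4). *Ddit3* had 389 ± 18.3 TPM and *Herpud1* 238 ± 5.5 TPM. The other 6 lay between 43.4 and 71.7 TPM, so the mean TPM of *Hspa5* was 12.6 times that of *Ern1* and 16.4 times that of *Sdf2l1*. Neighbours in this order did not overlap down to *Atf6*. *Atf6* and *Creb3l2*, *Creb3l2* and *Sdf2l1*, and *Xbp1* and *Dnajb9* overlapped in their sample ranges. After IL-1β the first 5 genes kept their order, with *Atf4* at 1042 ± 16.7 TPM and *Hspa5* at 645 ± 31.8 TPM. Below them, *Dnajb9* stood at 49.1 ± 3.06 TPM, at rank 8 instead of 10, and *Creb3l2* at 42.6 ± 1.1 TPM, at rank 9 instead of 7. After IL-1β, *Sdf2l1* and *Atf6*, *Atf6* and *Dnajb9*, and *Creb3l2* and *Xbp1*, the last of the order, overlapped in their sample ranges. The order of *Sdf2l1*, *Atf6* and *Dnajb9* was therefore not settled.

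**Figure D2:**
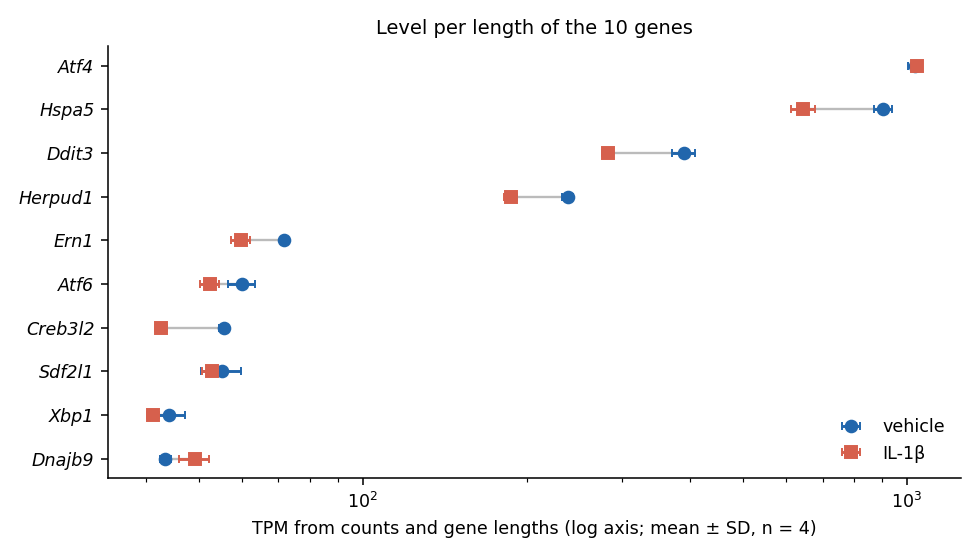
Mean TPM ± SD (n = 4) of each of the 10 genes on a log axis, for vehicle (circles) and IL-1β (squares), ordered by the vehicle mean. *Atf4* and *Hspa5* lie highest in both groups. *Hspa5* goes from 904 to 645 TPM, and *Atf4* from 1035 to 1042 TPM.

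The fall of *Hspa5* was shared by most genes of the list of ER chaperones and foldases. Of its 28 genes, all tested, 16 fell, 3 rose and 9 did not pass, with a median log2 fold change of -0.13. The 57.1% that fell compared with 19.8% of all genes tested, and the 10.7% that rose with 20.4%. Most genes of the pathway lists had a mean of at least 20 CPM, a range in which 27.8% fell and 25.8% rose. Without *Hspa5*, *Sdf2l1* and *Dnajb9*, 15 of 25 fell and 2 rose. *Calr*, the gene of the lectin chaperone calreticulin, went from 627 ± 16.4 to 472 ± 11.3 CPM (SD, n = 4), a log2 fold change of -0.41 (SE 0.0308, edgeR adjusted p = 5.54e-12). *Hsp90b1*, which encodes GRP94, went from 385 ± 3.77 to 304 ± 10.9 CPM, a change of -0.34 (adjusted p = 6.9e-10). The exons of *Hsp90b1* overlap other gene models over 15.7% of their length. *Pdia4*, a disulphide isomerase, changed by -0.28 (adjusted p = 3.68e-08), *Manf*, a nucleotide-exchange regulator of BiP, by -0.25 (adjusted p = 0.000206) and *Hyou1*, the large chaperone that recharges BiP, by -0.22 (adjusted p = 6.99e-07). The highest rise of the list was that of *Ero1l*, whose product reoxidises the disulphide isomerases. It went from 294 ± 7.71 to 416 ± 18.4 CPM, a log2 fold change of 0.50 (SE 0.0343, adjusted p = 7.69e-13), and all 4 IL-1β samples exceeded all 4 vehicle samples.

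**Figure D3:**
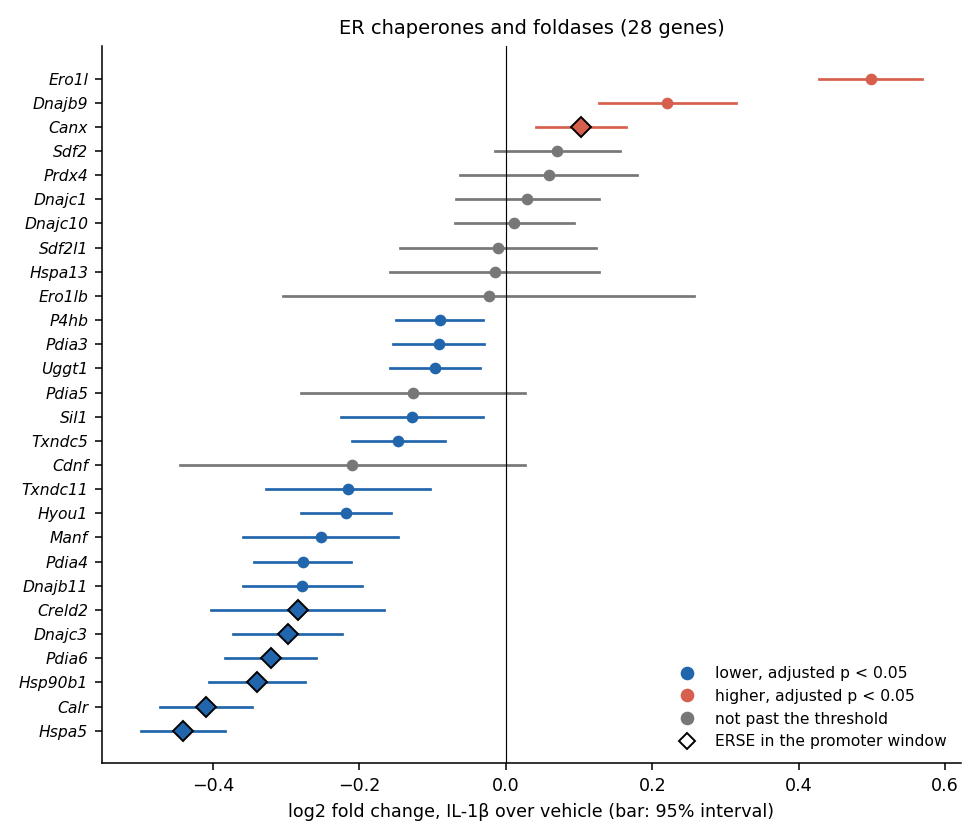
Log2 fold change (IL-1β over vehicle, horizontal axis) of the 28 ER chaperone and foldase genes with its 95% interval, coloured by the edgeR call at an adjusted p under 0.05. Diamonds mark the 7 genes with an ERSE in the promoter window, of which *Canx* lies right of 0 at 0.10 and the other 6 left of it, from -0.44 to -0.28.

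The ERSE was searched for in every RefSeq promoter window, on both strands, and 39 of 32851 windows held it (0.119%). Of the 9 members with a window, it was in that of *Hspa5*. ERSE-II was in 12 windows (0.0365%), *Herpud1* being the member among them. The core of the XBP1 element, TGACGTGG, was in 0.676% of windows and in none of the members' windows. The C/EBP-ATF element, TTNCATCA, was in 3.97% of windows and in that of *Herpud1*. The windows of *Ddit3*, *Atf4*, *Xbp1*, *Ern1*, *Dnajb9*, *Sdf2l1* and *Creb3l2* held none of the 4 motifs, which says only that these letters are absent from these 300 bases. *Atf6* had no window. Of the 18 tested genes with an ERSE, 9 belonged to the pathway lists, *Hspa5* among them, and their elements are shown with the blocks in capitals, read on the strand that gives CCAAT first, because the 9 intervening bases differ from gene to gene. *Hsp90b1* held 2.
Hspa5, 65 to 47 bases before the RefSeq start: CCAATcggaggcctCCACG
Calr, 162 to 144 before: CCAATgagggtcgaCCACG
Hsp90b1, 212 to 194 before: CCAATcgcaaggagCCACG
Hsp90b1, 107 to 89 before: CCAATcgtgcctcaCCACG
Pdia6, 98 to 80 before: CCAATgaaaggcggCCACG
Dnajc3, 105 to 87 before: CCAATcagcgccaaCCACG
Creld2, 126 to 108 before: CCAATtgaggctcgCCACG
Canx, 145 to 127 before: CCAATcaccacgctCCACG
Syvn1, 44 to 26 before: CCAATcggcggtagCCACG
Derl3, 156 to 138 before: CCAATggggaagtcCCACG

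Beside these sequences stood the following changes. *Pdia6*, a disulphide isomerase, gave a log2 fold change of -0.32 (edgeR adjusted p = 7.39e-10), *Dnajc3*, which encodes the PERK inhibitor P58IPK, one of -0.30 (adjusted p = 9.14e-08) and *Creld2* one of -0.28 (adjusted p = 0.000186). *Canx*, the membrane-bound relative of calreticulin, rose by 0.10 (adjusted p = 0.0066). *Syvn1*, the ubiquitin ligase HRD1, had -0.01 with an interval of -0.10 to 0.09 and *Derl3* had -0.33 with one of -0.66 to -0.00, and neither passed. The value of *Derl3* rested on few counts and on single libraries, being -0.16 without IL-1β replicate 1 and -0.45, past the threshold, without IL-1β replicate 2. The element of *Creld2* (chr15:88819520-88819538) lies between 2 genes that start in opposite directions and is the same stretch of DNA as that of *Alg12*, a glycosyltransferase gene whose log2 fold change was 0.01 (adjusted p = 0.899). Of all 18 tested genes with an ERSE, 11 fell and 2 rose, with a median of -0.31, while of the 9921 tested genes with any window 21.6% fell and 22.3% rose, with a median of 0.00. Within the chaperone list, the 7 genes with an ERSE had a median of -0.32. The 15 with a window but no ERSE had one of -0.09, with 7 of the 15 lower and 1 higher. These 15 were not free of the other motifs. *Dnajb11* held an ERSE-II, *Txndc5* and *Txndc11* the core of the XBP1 element, and *Cdnf* and *Txndc5* a C/EBP-ATF element. For the core of the XBP1 element, 35 of 109 tested genes fell and 19 rose, with a median of -0.05. A match is a string of letters, and binding was not measured.

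Most genes of ER-associated degradation did not pass the test. *Herpud1* was among 4 of 21 that fell, 1 rose and 16 did not pass, with a median log2 fold change of -0.00. The 19% that fell was near the 19.8% of all genes tested, and the 4.76% that rose compared with 20.4%. Of genes with a mean of at least 20 CPM, where most of this list lay, 27.8% fell and 25.8% rose. The largest fall was that of *Edem1*, which extracts misfolded glycoproteins from the calnexin cycle and went from 118 ± 4.28 to 87.4 ± 2.99 CPM (SD, n = 4), a log2 fold change of -0.44 (SE 0.0364, edgeR adjusted p = 4.75e-11). *Herpud2*, the paralog of *Herpud1*, was the gene that rose, by 0.12 (adjusted p = 0.0136), but it did not pass without vehicle replicate 2, at 0.10. The *Herpud1* and *Herpud2* changes had opposite signs, with 95% intervals of -0.37 to -0.23 and 0.04 to 0.20.

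Targets of ATF4 and CHOP were read as a list of 31 genes, *Ddit3* included, because the mRNA of *Atf4* says little about its translation. Of these, 20 fell, 6 rose and 5 did not pass, with a median log2 fold change of -0.13. The 64.5% that fell compared with 19.8% of all genes tested, and the 19.4% that rose was near their 20.4%. Of genes with a mean of at least 20 CPM, as most of these had, 27.8% fell and 25.8% rose. *Atf3*, a stress-induced repressor, had 34.5, 32.3, 31.2 and 34.9 CPM after IL-1β and 61.5, 65.5, 59.7 and 61.8 CPM in vehicle. These groups were clearly apart, and the log2 fold change was -0.91 (SE 0.0465, edgeR adjusted p = 9.06e-16). *Fgf21*, a secreted stress hormone, was a downregulated DEG at a low level, with 3.34, 3.47, 3.93 and 4.13 CPM after IL-1β against 12.4, 11.6, 10.7 and 13.7 CPM in vehicle, a log2 fold change of -1.69 (SE 0.117, adjusted p = 9.22e-13). The smaller falls included *Trib3*, a pseudokinase inhibitor of ATF4 (-0.21, adjusted p = 1.14e-05), *Chac1*, which degrades glutathione (-0.13, adjusted p = 0.00567) and *Asns*, asparagine synthetase (-0.12, adjusted p = 0.00182).

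The genes of this list that rose were led by *Slc7a11*, the cystine carrier of system xc-. It had 143, 128, 119 and 123 CPM after IL-1β and 51.7, 52.1, 49.1 and 52.7 CPM in vehicle. Every IL-1β sample had more than any vehicle sample, and the log2 fold change of 1.31 made it an upregulated DEG (SE 0.0467, edgeR adjusted p = 1.58e-19). *Ddit4*, which encodes the mTORC1 inhibitor REDD1, rose by 0.44, from 194 ± 6.84 to 262 ± 14.7 CPM (SD, n = 4, adjusted p = 6.77e-11). *Slc7a11*, *Atf3* and *Fgf21* are also targets of other pathways, so their place in the list does not tie them to ATF4 here.

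**Figure D4:**
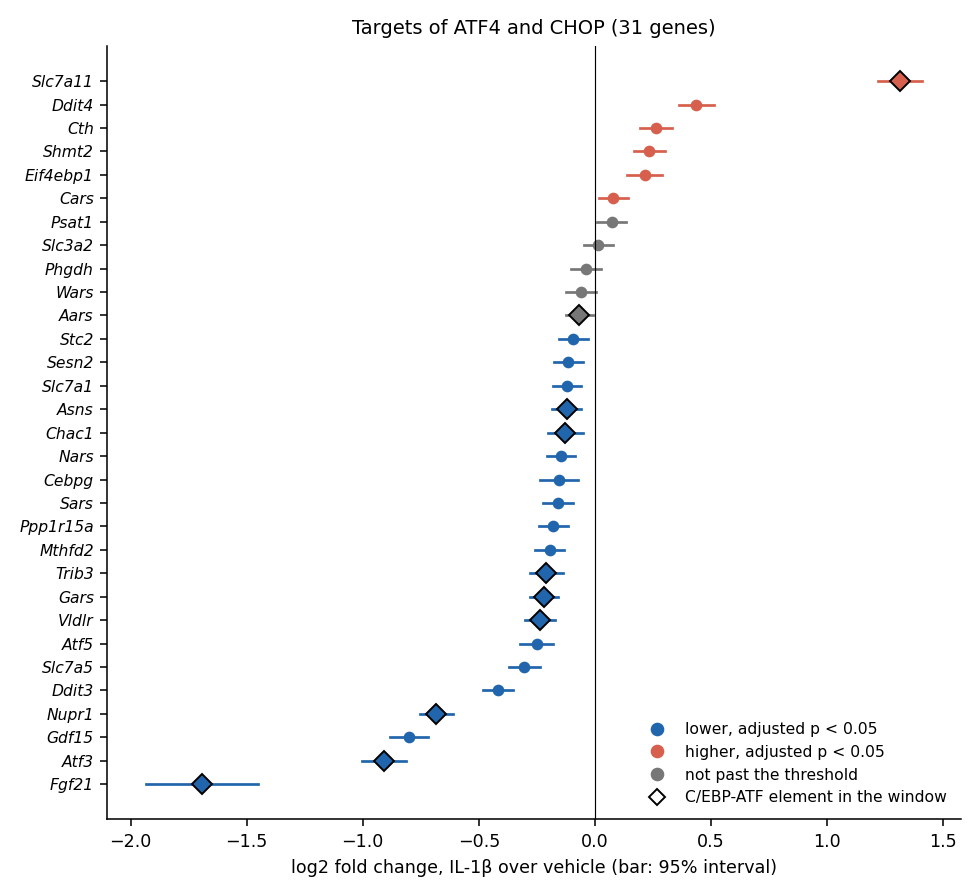
Log2 fold change (IL-1β over vehicle, horizontal axis) with its 95% interval for the 31 listed targets of ATF4 and CHOP, coloured by the edgeR call at an adjusted p under 0.05. Diamonds mark the 10 genes with a C/EBP-ATF element in the promoter window, which run from *Fgf21* at -1.69 to *Slc7a11* at 1.31.

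The C/EBP-ATF element of *Herpud1* was the same 8 bases as those of several genes in this list, shown because genes with identical letters moved in opposite directions. Capitals mark the whole element, and distances are counted in bases before the RefSeq start.
Herpud1, 112 to 105: TTGCATCA
Atf3, 110 to 103: TTGCATCA
Nupr1, 110 to 103: TTGCATCA
Fgf21, 139 to 132: TTGCATCA
Chac1, 193 to 186: TTGCATCA
Vldlr, 200 to 193: TTGCATCA
Slc7a11, 66 to 59 (opposite strand): TTGCATCA
Slc7a11, 47 to 40: TTGCATCA
Asns, 23 to 16 (opposite strand): TTTCATCA
Gars, 30 to 23: TTTCATCA
*Aars* held a TTGCATCA and a TTTCATCA, and *Trib3* a TTACATCA just after its start. Of the 10 listed targets with the element, 8 fell and 1 rose, with a median of -0.21, and of the 15 with a window but no element 10 fell and 2 rose, with a median of -0.12. *Nupr1*, a stress-induced nuclear protein gene, gave -0.68 on the log2 scale (edgeR adjusted p = 7.28e-16), and *Vldlr* and *Gars* had -0.24 and -0.22 (adjusted p = 3.21e-07 and 4.45e-07). *Aars* did not pass at -0.07, with an interval of -0.13 to -0.01, but did with DESeq2 or scaling to the total library size. Over all 274 tested genes with the element, 78 fell (28.5%) and 60 rose (21.9%), with a median of -0.03. Of tested genes with any window, 21.6% fell and 22.3% rose.

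Upstream of *Atf4*, the list of eIF2α kinases and phosphatase subunits held 7 genes, of which 4 fell and 2 rose, with a median of -0.09. That is 57.1% and 28.6% of a short list, against 19.8% and 20.4% of all genes tested. *Ppp1r15a*, which encodes GADD34, the subunit that ends eIF2α phosphorylation and is itself a target of ATF4 and CHOP, went from 374 ± 2.89 to 330.1 ± 8.88 CPM (SD, n = 4), a log2 fold change of -0.18 (edgeR adjusted p = 2.47e-05). The genes that rose encode kinases with other triggers. *Eif2ak1*, the haem-regulated kinase HRI, rose by 0.19 (adjusted p = 0.00251) and *Eif2ak4*, the amino acid sensor GCN2, by 0.13 (adjusted p = 0.0223). *Eif2ak4* no longer passed with DESeq2 in place of edgeR, with no filter on low counts, or without IL-1β replicate 3 or vehicle replicate 1, each at 0.12 to 0.13.

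Downstream of *Ern1* and *Ddit3*, a list of 7 death-signalling genes held the remaining DEGs. *Traf2* and *Map3k5*, which encode the adaptor and the kinase ASK1 that link IRE1α to JNK, rose. *Map3k5* had 67.3, 61.1, 64.4 and 63.5 CPM after IL-1β and 29.8, 28.3, 28.1 and 32.9 CPM in vehicle, a log2 fold change of 1.10 (SE 0.0491, edgeR adjusted p = 3.42e-17). *Traf2* rose by 0.97, from 21.3 ± 0.454 to 41.7 ± 1.37 CPM (SD, n = 4, adjusted p = 1.89e-15). Both also act downstream of TNF receptors. *Casp12*, the gene of an ER-associated caspase of rodents, had 8.23, 8.9, 7.81 and 8.25 CPM after IL-1β and 21.2, 20.1, 17.5 and 17 CPM in vehicle, a log2 fold change of -1.20 (SE 0.0911, adjusted p = 6.57e-12). *Pmaip1*, which encodes the BH3-only protein NOXA, was also a downregulated DEG, but rested on 6 to 38 counts per sample. It had 0.739 ± 0.147 CPM after IL-1β against 1.97 ± 0.161 CPM in vehicle (log2 fold change -1.38, edgeR adjusted p = 2.65e-05). Only its vehicle samples exceeded 1 CPM, so it entered the test through the group where it is high. It left the test when a CPM above 1 was asked of all 8 samples or when any vehicle replicate was left out. The remaining 3 genes of this list did not pass, and its median was 0.00. Of the 7 genes, 2 fell and 2 rose, 28.6% each, against 19.8% and 20.4% of all genes tested.

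The route into and out of the ER was read from lists of translocon and signal peptidase genes and of COPII export and retrieval genes. In the translocon list, 14 of 21 fell (66.7%, against 19.8% of all genes tested) and 0 rose (against 20.4%), with a median log2 fold change of -0.13. *Ssr3*, a subunit of the translocon-associated protein complex, had 265, 269, 261 and 247 CPM after IL-1β and 399, 398, 395 and 403 CPM in vehicle, a log2 fold change of -0.61 (SE 0.0323, edgeR adjusted p = 1.73e-15). On the log2 scale this fall was larger than that of any of the 10 members. *Sec11c*, a signal peptidase subunit, had -0.30 (adjusted p = 0.022) with overlapping groups, and no longer passed without IL-1β replicate 3, vehicle replicate 1 or vehicle replicate 2, at -0.21, -0.28 and -0.29. In the COPII list, 9 of 22 fell (40.9%, against 19.8% of all genes tested) and 4 rose (18.2%, against 20.4%), with a median of -0.04. Beside *Sec23a*, the receptor for escaped ER residents *Kdelr2* fell, with -0.19 (adjusted p = 8.02e-06), whereas *Mcfd2*, a cargo receptor subunit, and *Sec24b*, a coat gene, rose by 0.20 and 0.15 (adjusted p = 5.92e-05 and 0.000233).

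Chaperones of other compartments were read for comparison with *Hspa5*. In the cytosolic heat shock list, 3 of 13 genes rose and 2 fell, with a median log2 fold change of 0.04. These shares of 23.1% and 15.4% were near the 20.4% and 19.8% of all genes tested. Of genes with a mean of at least 20 CPM, as most of this list had, 25.8% rose and 27.8% fell. *Hsp90ab1*, the cytosolic relative of *Hsp90b1*, rose by 0.20, from 1356 ± 35.6 to 1562 ± 16.2 CPM (SD, n = 4, edgeR adjusted p = 4.26e-07), while *Hsp90b1* fell. *Dnajb1*, a cytosolic J-domain gene, had 0.16 (adjusted p = 0.0384) with overlapping groups, and did not pass with DESeq2 or without IL-1β replicate 1 or 3 or vehicle replicate 3 or 4, at 0.10 to 0.16. The small heat shock gene *Cryab* went from 50 ± 3.39 to 29 ± 1.45 CPM, a change of -0.78 (adjusted p = 5.97e-13). Its exons overlap *Hspb2*, on the opposite strand, over 17% of their length. *Hspb1* had -0.46 (adjusted p = 0.0142) with overlapping groups at 4.66 ± 0.673 and 6.27 ± 1.44 CPM. That call was lost without IL-1β replicate 2 or vehicle replicate 1 or 2, at -0.40, -0.37 and -0.36. Of the 8 mitochondrial chaperones and proteases, 5 fell (62.5%, against 19.8% of all genes tested) and 0 rose (against 20.4%), with a median of -0.12. *Clpx* and *Clpp*, the subunits of the ClpXP protease, had -0.20 and -0.15 (adjusted p = 0.00187 and 0.0154), and *Clpp* did not pass without IL-1β replicate 1 or vehicle replicate 2, at -0.11 and -0.12. The mitochondrial share lower and median were near the 57.1% and -0.13 of the ER chaperone list, and the difference between the lists was not tested. The lowest mitochondrial value was -0.20, against -0.44 for *Hspa5*, the lowest of the ER chaperone list.

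**Figure D5:**
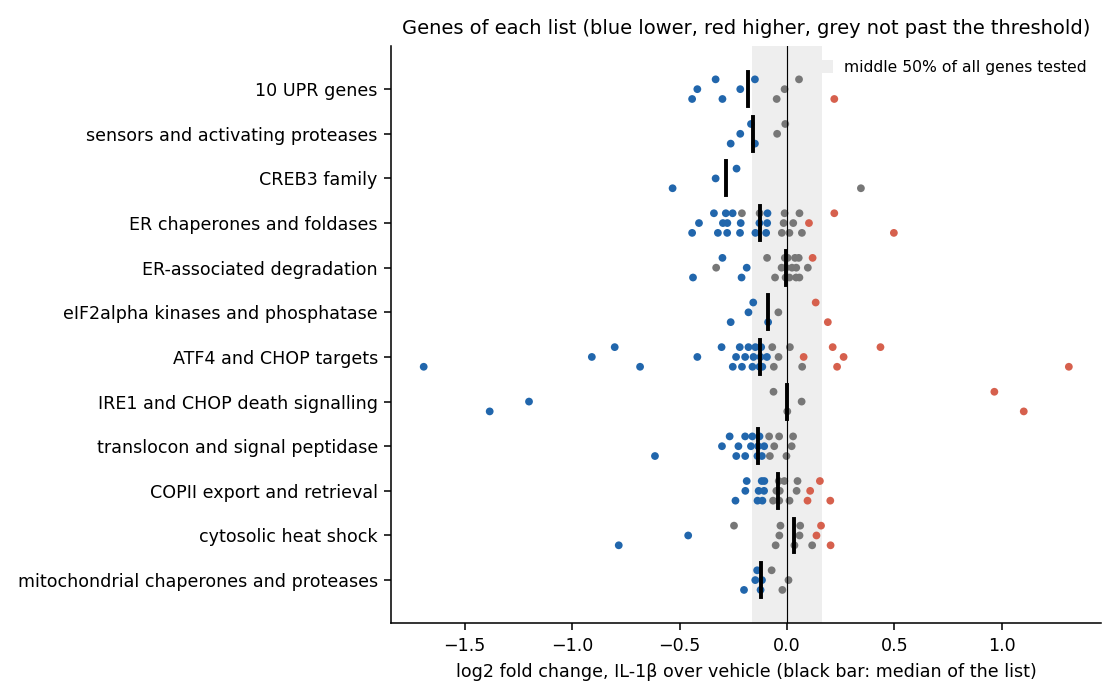
Log2 fold change (IL-1β over vehicle, horizontal axis) of every tested gene in the 10-gene set and in the 11 pathway lists, with the median of each list as a black bar and the middle 50% of all genes tested, from -0.16 to 0.16, as a grey band. The medians run from -0.28 for the CREB3 family to 0.04 for the cytosolic heat shock genes.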

How the data were processed

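RNA-seq counts per gene symbol for 4 IL-1β and 4 vehicle samples were used as deposited. Per the study's methods, the authors used cutadapt for trimming, STAR with GENCODE annotation for alignment to mm10, and featureCounts for counting. The STAR version differs between the methods and the submitters' processing notes (2.4.2a in the latter), and it is not stated whether the named RUVseq correction precedes these counts. Whether strand was used in counting is not given in the sources used here. A gene was tested when 4 or more samples exceeded 1 CPM, with edgeR 4.0.16 (quasi-likelihood, TMM, Benjamini-Hochberg, R 4.3.3), although the methods name DESeq2, which was run as an alternative (1.42.0). CPM used TMM-scaled library sizes, and TPM used the deposited gene lengths. Percent changes of the members were converted from the fitted log2 fold changes. The fit was tested on simulated data with log2 fold changes of 1 in either direction, of which edgeR recovered 97.5%. Changes as small as those of the members were not simulated.

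Positions came from GENCODE vM21 and promoter windows from RefSeq (GRCm38.p6), whose starts lay from 18 bases before (*Xbp1*) to 258 bases after (*Dnajb9*) the GENCODE starts of the members. Matches to the deposited length were found for all 10 members. Named were the members, every listed DEG, the 2 largest rises and falls of each list, a preset handful of genes, and listed genes with an ERSE or C/EBP-ATF element, to which *Alg12* was added for its shared element and *Mbtps2* to complete the sensor list. Members and lists were chosen with earlier results of these data known. Same-numbered samples of the 2 groups did not deviate together, but with 4 such pairs this cannot settle whether they were paired. A planned search for ER retention signals in protein sequences was not analysed here.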

Additional observations from a re-analysis of the deposited data

Results flagged for a closer look

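Within the groups of 4, 3 of 122 sets of values held a sample far from the others by Dixon's test, where chance gives about 1 in 20. *Hsp90b1* was 391 CPM in vehicle replicate 3 and 383 CPM in each of the others. *Canx* was 598 CPM in IL-1β replicate 2 and 585 to 586 CPM in the others. *Alg12* was 18.7 CPM in vehicle replicate 2 and 20.8 to 20.9 CPM in the others. None of the 10 unfolded protein response genes was among them.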

How the results depend on the processing

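The count of 6 members lower was the same under every alternative run, and that of 1 higher under every one but the fit with 1 factor of unwanted variation, where it was 2 because *Atf4* then passed (log2 fold change 0.07, adjusted p = 0.038). With a DEG threshold of 0.5, no member became a DEG. For the lists, the eIF2α count of 2 higher became 1 with DESeq2 and 1 with no filter, and ran from 1 to 2 with a replicate left out. The death-signalling count of 2 lower became 1 where a CPM above 1 was asked of all 8 samples, which removes *Pmaip1*, and ran from 1 to 2 with a replicate left out. The degradation count of 1 higher ran from 0 to 1, being 0 without vehicle replicate 2. The heat shock count of 2 lower ran from 1 to 3. In all, 378 of 392 such counts stayed within 1.5 times. The direction turned for genes near 0. With the factor of unwanted variation, *Atf6b* was 0.0276, *Sdf2l1* 0.0415 and *Syvn1* 0.0214, and the cause was not tested. With a replicate left out, *Sdf2l1* ran from -0.04 to 0.0238, *Atf6b* from -0.03 to 0.0168, *Syvn1* from -0.03 to 0.0333 and *Alg12* from -0.0484 to 0.05. A replicate block in the fit gave 2857 genes that rose and 2787 that fell, and 1 and 6 members did. Deviations from the group mean correlated at -0.0653 to 0.0321 between same-numbered samples and at -0.0712 to 0.0797 between other pairs. With only 4 same-numbered pairs, these values cannot settle whether such samples shared an isolation, which the labels do not say. Scaling moved the median of all genes by at most 0.005. The search for ER retention signals was not run.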
